A study of Saccharomyces cerevisiae with 27 samples.

Results

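The 60 genes described here encode ribosome biogenesis factors of budding yeast, the proteins that process pre-ribosomal RNA and build the ribosomal subunits without being part of the finished ribosome. They were taken by systematic name (for example NOG1, YPL093W, NOP7, YGR103W, RRP5, YMR229C, and UTP22, YGR090W) from the 7122 gene IDs of the series. No expression threshold was used, but the list was chosen with earlier results of these data known. All 60 passed the filter on low counts that left 6386 genes for testing. The RNA was from 3 strains. The C719A strain carried an alanyl-tRNA synthetase (AlaRS) that cannot edit mischarged tRNA, the G906D strain carried an AlaRS with reduced aminoacylation, equivalent to a mutation found in human patients, and the WT strain carried the unmutated enzyme. In each strain the chromosomal ALA1 gene of BY4741 was deleted, and the only AlaRS came from a single-copy pRS315 (LEU2) plasmid introduced by plasmid shuffling. Cells grown in YPD at 30 °C were sampled before heat (0 h) and 1 h and 2 h after a shift to 37 °C, with 3 libraries of poly(A) RNA for each strain and time and 27 libraries in all. The study calls these biological replicates, and whether each came from a culture of its own is not stated in the labels.

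A yeast ribosome is assembled in an ordered pathway that starts in the nucleolus. Box C/D snoRNPs and the UTP complexes bind the nascent pre-rRNA and fold it into the small-subunit processome, DEAD-box helicases remodel RNA at many steps, and a separate line of nucleolar factors, GTPases and export adaptors carries the large subunit to the cytoplasm. The genes for these proteins are known as the Ribi regulon. In growing yeast they are transcribed together under the control of TORC1, Sch9 and Sfp1, and stress represses them through Tod6 and Dot6, which bind the PAC motif, and through Stb3, which binds the RRPE motif.

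Both motifs were searched on both strands in the 250 bases before the start codon of every nuclear protein-coding gene of the RefSeq R64 assembly. PAC was searched for as GATGAG, which appears in the printed strand as CTCATC where the match is on the other one, and RRPE as AAAAATTTT, which then appears as AAAATTTTT. PAC lay before 55 of the 60 genes (91.7%), against 1022 of 6001 promoters in all (17%). RRPE lay before 38 of the 60 (63.3%), against 404 of 6001 (6.73%), and 35 of the 60 held both (58.3%), against 201 of 6001 (3.35%). Within 150 bases the counts were 49 for PAC (10.1% of all promoters) and 25 for RRPE (3.8% of all promoters). These shares are a description of the letters only. The 2 members with no match were UTP22 and UTP30. PAC lay between 47 and 223 bases before the start codon (median 112, over 86 matches) and RRPE between 25 and 217 bases (median 137.5, over 50 matches, where an RRPE match on one strand can overlap one on the other).

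The stretches from 250 to 51 bases before the start codon are shown 5′ to 3′ on the strand of the gene for 6 members to which the results return, with PAC and RRPE matches in capitals. NOP7 (chrVII:695167-695366, plus strand) holds 3 overlapping PAC matches between a pair of RRPE matches, RRP5 (chrXIII:731174-731373, minus strand) holds 2 RRPE matches directly before 2 overlapping PAC matches, NOG1 (chrXVI:370728-370927, plus strand) has 1 RRPE match flanked by PAC on the opposite strand, and ERB1 (chrXIII:370568-370767, minus strand) and NOP58 (chrXV:898411-898610, minus strand) hold 1 of each. UTP22 (chrVII:662108-662307, plus strand) is shown because it has neither.
NOP7: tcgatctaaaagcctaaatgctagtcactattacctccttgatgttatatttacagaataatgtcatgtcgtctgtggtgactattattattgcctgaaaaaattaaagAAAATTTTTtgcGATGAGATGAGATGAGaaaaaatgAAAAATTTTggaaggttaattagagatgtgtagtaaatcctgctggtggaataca
RRP5: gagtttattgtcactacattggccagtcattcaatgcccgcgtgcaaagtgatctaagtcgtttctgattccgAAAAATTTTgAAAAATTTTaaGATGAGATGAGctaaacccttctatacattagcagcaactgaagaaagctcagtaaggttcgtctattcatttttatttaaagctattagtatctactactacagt
NOG1: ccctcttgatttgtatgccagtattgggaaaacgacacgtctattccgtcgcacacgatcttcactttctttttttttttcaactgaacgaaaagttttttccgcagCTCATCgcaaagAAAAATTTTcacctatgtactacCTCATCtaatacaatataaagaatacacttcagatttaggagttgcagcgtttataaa
ERB1: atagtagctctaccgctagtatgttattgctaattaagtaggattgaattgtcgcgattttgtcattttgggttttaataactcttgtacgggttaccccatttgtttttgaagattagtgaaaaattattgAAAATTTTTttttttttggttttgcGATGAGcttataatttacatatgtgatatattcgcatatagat
NOP58: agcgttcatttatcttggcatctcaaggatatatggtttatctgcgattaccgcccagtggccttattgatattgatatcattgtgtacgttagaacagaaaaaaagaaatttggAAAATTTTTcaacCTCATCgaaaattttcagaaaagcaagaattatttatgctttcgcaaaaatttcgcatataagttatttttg
UTP22: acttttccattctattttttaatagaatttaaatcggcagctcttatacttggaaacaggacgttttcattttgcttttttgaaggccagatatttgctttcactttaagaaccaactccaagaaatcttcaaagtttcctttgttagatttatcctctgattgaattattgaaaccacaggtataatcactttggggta

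**Figure D1:**
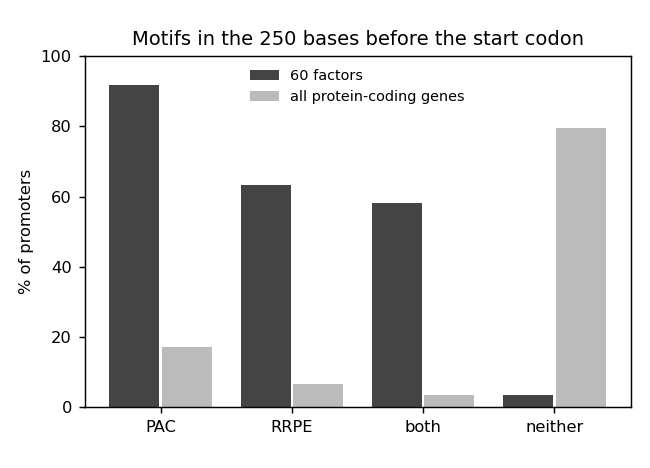
Share of promoters (in %, 250 bases before the start codon, RefSeq R64) with a PAC match, an RRPE match, both or neither. Dark bars are the 60 ribosome biogenesis factors and light bars all 6001 protein-coding genes; PAC is at 91.7% of the factors and 17% of all genes.

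Libraries held 14471528 to 23057641 counts in all, and the lowest count of any member in any library was 262. Libraries were scaled by TMM, whose factors ran from 0.719 to 1.15, and they were lowest in the G906D libraries at 0 h. Levels are given as CPM (counts scaled to a common library size with the TMM factors), so they are relative to the other mRNAs of a library, and less of an mRNA per cell cannot be told apart from fewer cells that make it. URA3 and MET17, which are deleted in BY4741, had 0 counts in all 27 libraries, while HIS3, a marker of the same background, was at 54.6 to 107 CPM in C719A, 41.3 to 93.0 CPM in G906D and 27.1 to 42.1 CPM in WT libraries. The strains share this background, and URA3 and MET17 do not tell them apart. HIS3 levels did not overlap between C719A and WT libraries, while those of G906D libraries overlapped with both. The plasmid gene ALA1 was at 3700 to 5807 CPM in C719A libraries, 1639 to 2776 CPM in G906D libraries and 1121 to 3146 CPM in WT libraries, and the plasmid marker LEU2 at 899 to 4248, 466 to 1031 and 246 to 770.1 CPM. The ALA1 levels of G906D and WT libraries overlapped, as their LEU2 levels did, so no marker told those 2 strains apart with all times pooled. Within 2 h, raw counts did not overlap for HIS3 (1311 to 1443 in G906D, 536 to 778 in WT) or LEU2 (10123 to 12092, 5101 to 9174). Those of ALA1 did. Of the 3 markers tested, 2 were higher in G906D than in WT at 0 h, 1 at 1 h and 2 at 2 h (edgeR, adjusted p under 0.05). The mutations themselves cannot be read from counts. The library protocol is not stated to keep strand. Reads on REI1 can belong in part to SLM6, a gene annotated over 38.3% of it. Those on SSF1 can belong in part to its paralog SSF2, with which 4.04% of its 50-base windows are shared. NOG2 holds the snoRNA gene SNR191 in its intron (13.7% of the gene). The counts and FPKM of NOG2 imply a length of 1462 bases, against 1993 with the intron, so the intron appears to be left out. Whether reads of SNR191 were counted on NOG2 is not stated. None of the other 57 members overlapped an annotated gene or had a 50-base window elsewhere in R64.

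Per gene length, the members covered a wide range of levels. In WT cells before heat, NOP1, the fibrillarin methyltransferase, was the most abundant at 462 ± 68.0 FPKM (SD, n = 3), followed by the helicase DBP2 (231 ± 87.6 FPKM), the nucleolin homologue NSR1 (223 ± 91.6 FPKM) and the large-subunit factor NOP16 (218 ± 41.0 FPKM). The order of DBP2, NSR1 and NOP16 was within their spread. The lowest were the helicase DBP7 (16.6 ± 2.36 FPKM) and REI1 (21.7 ± 2.19 FPKM), a cytoplasmic factor of late large-subunit maturation. In the C719A strain before heat NOP1 reached 832 ± 60.8 FPKM, and in the G906D strain NSR1 was the highest member, at 817 ± 65.0 FPKM. FPKM values are not corrected by TMM, so they are used here for the order of genes within a strain.

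Together the 60 genes took 1.29% ± 0.113 of all counts in C719A cells before heat (SD, n = 3), 0.646% ± 0.103 after 1 h and 0.799% ± 0.0277 after 2 h. In G906D cells the shares were 1.15% ± 0.0804, 0.775% ± 0.106 and 1.01% ± 0.0791 at the same times. In WT cells they were 0.708% ± 0.143, 0.628% ± 0.1 and 0.413% ± 0.0977. The mean share was larger in the mutants than in WT before heat and after 2 h, and the strain means lay closest at 1 h. The genes moved together between replicate libraries as well. Averaged over the 60 members and centred on each gene's mean over the 27 libraries, log2 CPM was 0.19, -0.04 and -0.38 in the WT libraries A, B and C at 0 h, -0.26, -0.33 and -0.72 at 1 h, and -1.44, -0.81 and -0.91 at 2 h. WT library A at 2 h was the lowest of all 27. Counts and medians over the 60 members at 2 h are given with and without it, and single members where their call depended on it; medians of role groups are over all libraries.

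**Figure D2:**
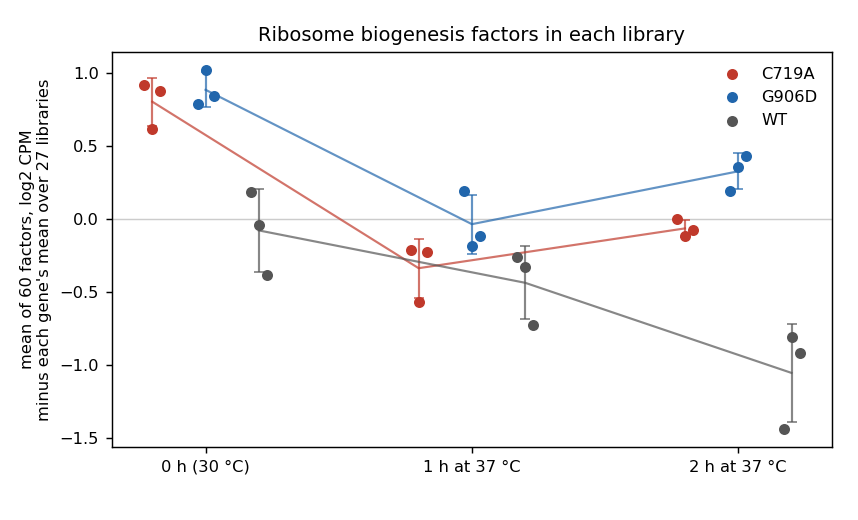
Mean over the 60 ribosome biogenesis factors of log2 CPM minus each gene's mean over all 27 libraries, for C719A, G906D and WT cells at 0, 1 and 2 h. Points are libraries, lines join group means and bars are the SD (n = 3); the strains lie closest at 1 h, and WT library A at 2 h is the lowest point, at -1.44.

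The first comparison asked how the strains differed before heat. In the C719A strain, 56 of the 60 factors were higher than in WT and none was lower, where 27% of all genes tested were called higher and 26.7% lower (edgeR, quasi-likelihood F-test, called at 0.05 after Benjamini-Hochberg adjustment over 6386 genes, here and for every adjusted p below). The median log2 fold change was 0.87, or 1.83-fold, against 0.0085 over all genes tested, and 19 of the called members differed by at least 2-fold. The 60 estimates ran from 0.0046 to 1.54, with quartiles of 0.70 and 1.09. NOP15, a nucleolar factor of large-subunit assembly, had the largest difference, with 278, 232 and 274 CPM in C719A libraries, against 98.7, 104 and 67.1 CPM in WT libraries (log2 fold change 1.54 ± 0.18 (SE), adjusted p = 2.14e-07). The 3 C719A libraries all lay above the 3 WT libraries. NOP4 (1.47 ± 0.19), REI1 (1.42 ± 0.17), SSF1 (1.40 ± 0.17) and DBP3 (1.37 ± 0.16) came next on the log2 scale (± SE), NOP4 and SSF1 being large-subunit factors and DBP3 a helicase.

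The difference from WT was found in all 7 role groups. All 16 nucleolar large-subunit factors (median 1.01) and all 6 GTPases and late factors (0.96) were called higher, as were the 6 UTP-A (0.65) and the 4 UTP-B proteins (0.66) with smaller medians. The box C/D group had the lowest median, 0.34, and only NOP1 and the U3-specific protein gene RRP9 were called in it. NOP1 was at 990.2, 806 and 948 CPM in C719A libraries, against 543, 531 and 398 CPM in WT libraries (log2 fold change 0.90 ± 0.19 (SE), adjusted p = 0.000324). NOP58 and NOP56, which form the scaffold of the same particles as Nop1, did not differ beyond the spread: NOP58 was at 245, 166 and 194 CPM in C719A libraries, against 180.3, 169 and 184 CPM in WT libraries (log2 fold change 0.18 ± 0.19 (SE), adjusted p = 0.422), and NOP56 at 240.1, 171 and 183 CPM, against 179, 173 and 219 CPM (log2 fold change 0.057 ± 0.17 (SE), adjusted p = 0.791). The other members not called were the helicase DBP6 (0.15 ± 0.11) and UTP22, a subunit of the UTP-C complex, at 128, 118 and 133 CPM in C719A libraries, against 140.4, 117 and 121 CPM in WT libraries (0.0046 ± 0.10).

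Members of the large-subunit line show the size of the difference in each library. NOG1, a nucleolar GTPase, had 222, 158 and 202 CPM in C719A libraries, against 105, 108 and 64.5 CPM in WT libraries (log2 fold change 1.06 ± 0.20 (SE), adjusted p = 0.000124). ERB1, which forms a complex with NOP7 and Ytm1, had 283, 222 and 263 CPM, against 177, 144 and 93.6 CPM (log2 fold change 0.89 ± 0.19 (SE), adjusted p = 0.000402). In both genes every C719A library was above every WT library, and WT library C was the lowest. NMD3, the adaptor that couples the large subunit to nuclear export, had 349, 285 and 350.4 CPM, against 230.3, 177 and 138 CPM (0.85 ± 0.15). REI1 had 77.8, 61.3 and 83.4 CPM, against 29.0, 30.2 and 23.8 CPM (1.42 ± 0.17), and its lowest C719A library was about 2-fold above its highest WT library. On the small-subunit side, RRP5, which is needed for both subunits, had 453, 351 and 472 CPM, against 267, 198 and 135 CPM (1.09 ± 0.21), and UTP10 of the UTP-A complex had 289, 222 and 289 CPM, against 216, 168 and 121 CPM (0.66 ± 0.18). With WT library C left out, the median over the 60 members was 0.71 and 51 were called higher.

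In the G906D strain before heat, 56 of the 60 factors were higher than in WT and none was lower, where 30.9% of all genes were called higher and 33.2% lower. The median was 0.87, or 1.83-fold, with quartiles of 0.70 and 1.05. The uncalled members were NOP56 (0.18 ± 0.17), NOP58 (0.26 ± 0.19), DBP6 (0.18 ± 0.11) and UTP5 (0.43 ± 0.19), 3 of which were uncalled in the C719A strain too. UTP5 was near the threshold and was called with any one of 9 libraries left out. Both comparisons used the same WT libraries. The members with the largest differences in the G906D strain all lie on chromosome VII: NSR1, DBP3, ENP2, NOP7 and UTP8. NSR1 had 1296, 1543 and 1326 CPM in G906D libraries, against 367, 383 and 153 CPM in WT libraries (log2 fold change 2.20 ± 0.27 (SE), adjusted p = 2.49e-07). NOP7, the pescadillo homologue, had 973, 1147 and 1017 CPM, against 341, 294 and 192 CPM (log2 fold change 1.92 ± 0.19 (SE), adjusted p = 1.31e-08). UTP22, the sixth member on this chromosome, had 249, 287 and 262 CPM, against 140.4, 117 and 121 CPM (log2 fold change 1.08 ± 0.10 (SE), adjusted p = 4.16e-09).

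The genes of chromosome VII were higher in the G906D strain as a whole. The median log2 fold change against WT over its 528 tested genes was 0.91 at 0 h, 0.96 at 1 h and 0.94 at 2 h, against -0.085, -0.044 and -0.072 over the other genes. The 6 members there had a median of 1.95, 1.30 and 2.41, and the other 54 members of 0.84, 0.29 and 1.29. In the C719A strain the chromosome was at 0.022 at 0 h. Without all genes of chromosome VII, 51 of the remaining 54 members were called higher in G906D cells at 0 h. With library size alone, which moved the median of all genes to -0.37 at this time, 44 of the 60 were called higher and none lower. Outside this chromosome the highest members in G906D cells were REI1, with 83.1, 96.6 and 84.9 CPM, against 29.0, 30.2 and 23.8 CPM (log2 fold change 1.67 ± 0.17 (SE), adjusted p = 1.32e-08), and NOG1, with 224, 273 and 227 CPM, against 105, 108 and 64.5 CPM (log2 fold change 1.38 ± 0.20 (SE), adjusted p = 3.67e-06). ERB1 (0.81 ± 0.19), NMD3 (0.68 ± 0.15), RRP5 (0.92 ± 0.21), NOP1 (0.78 ± 0.19) and UTP10 (0.71 ± 0.18) were all called higher.

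**Figure D3:**
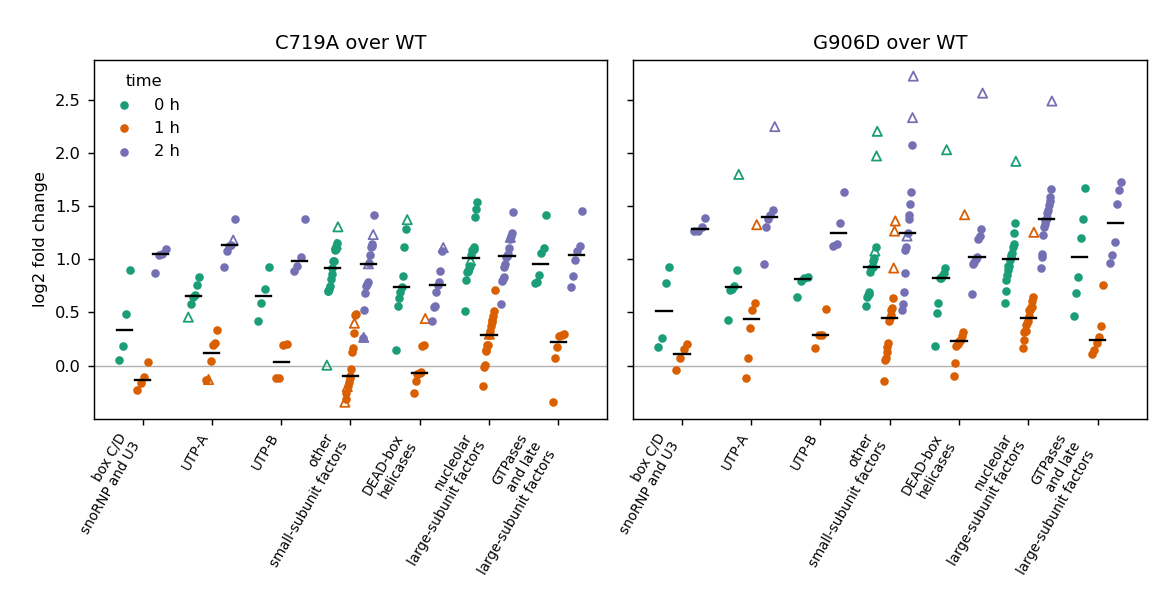
Log2 fold change over WT of each of the 60 factors in C719A cells (left) and G906D cells (right) at 0, 1 and 2 h, by role. Filled circles are members, open triangles the 6 members on chromosome VII and bars the group medians; the box C/D group is the lowest at 0 h, near 0 at 1 h and above 1 at 2 h in C719A cells, and in G906D cells most triangles stand above the circles of their role group.

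The next comparison asked what the first hour at 37 °C did in each strain. Nearly all factors were called lower in the mutants, and in WT about as many were called lower as were not. In C719A cells 59 of the 60 were lower at 1 h than at 0 h (median -1.10, all but DBP6), where 32% of all genes were called lower and 33.9% higher, and 38 fell by at least 2-fold. In G906D cells 55 were lower and none higher (median -0.94, background 33.8% lower and 37.6% higher). In WT cells 29 were called lower and 1 was called higher (median -0.38, background 30.2% lower and 30.8% higher). The estimates were above 0 for 0 of the 60 members in C719A, 1 in G906D and 9 in WT cells. NSR1 fell most in C719A cells, to 209, 135 and 208 CPM at 1 h, against 850.2, 614 and 770.4 CPM at 0 h (log2 fold change -2.02 ± 0.27 (SE), adjusted p = 6.04e-07). NIP7 (-1.94 ± 0.21), DBP2 (-1.93 ± 0.24) and NOP1 (-1.77 ± 0.19) followed. In G906D cells DBP2 fell most, to 273, 185 and 183 CPM at 1 h, against 676, 803 and 697 CPM at 0 h (log2 fold change -1.76 ± 0.24 (SE), adjusted p = 3.55e-07), with NOP7 (-1.72 ± 0.19) and NIP7 (-1.56 ± 0.20) next.

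The WT fall was uneven. NOP7 had 149, 149.98 and 101 CPM at 1 h, against 341, 294 and 192 CPM at 0 h (log2 fold change -1.05 ± 0.19 (SE), adjusted p = 4.38e-05), NOP56 had 109.7, 99.6 and 78.6 CPM, against 179, 173 and 219 CPM (log2 fold change -0.99 ± 0.17 (SE), adjusted p = 1.83e-05), and NOP58 had 113, 92.7 and 70.0 CPM, against 180.3, 169 and 184 CPM (log2 fold change -0.95 ± 0.19 (SE), adjusted p = 0.000108). NOP1 fell too (-0.90 ± 0.19), so 3 of the 4 box C/D genes were among the members that fell most in WT, and their WT libraries at the 2 times did not overlap. At the other end DBP7 was higher at 1 h, with 63.4, 54.5 and 44.9 CPM, against 43.7, 43.4 and 32.5 CPM at 0 h (log2 fold change 0.44 ± 0.13 (SE), adjusted p = 0.00625), a call that was lost without WT library C at 0 h or WT library A at 1 h. NOG1 (0.21 ± 0.20 (SE, adjusted p = 0.383)), REI1 (0.25 ± 0.17 (SE, adjusted p = 0.202)), UTP10 (-0.064 ± 0.18 (SE, adjusted p = 0.78)), UTP22 (0.018 ± 0.10 (SE, adjusted p = 0.89)) and RRP5 (-0.33 ± 0.21 (SE, adjusted p = 0.171)) were not called. Of the role groups, 11 of 16 nucleolar large-subunit factors were called lower in WT, against 2 of 6 GTPases and late factors and 1 of 4 UTP-B genes.

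The WT response in this hour depended on the scaling. TMM centres each comparison on the bulk of genes, and with library size alone the median over all genes was 0.29 in WT, 0.28 in C719A and 0.53 in G906D cells for 1 h over 0 h. The 60 factors had quartiles of -1.35 and -0.92 in C719A, -1.19 and -0.62 in G906D and -0.58 and -0.19 in WT cells with TMM. With library size alone 9 of the members were called higher and 9 lower in WT, 4 higher and 35 lower in G906D, and 0 higher and 56 lower in C719A cells. The fall in C719A cells therefore held in both scales, while in WT the number of members called higher equalled the number called lower without TMM. With TMM, 18 members were called in WT without WT library A of 0 h and 19 without WT library C of 1 h.

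After 1 h the strains had come close to each other. In C719A cells 7 factors were higher than in WT and 1 was lower (median 0.14), where 17.3% of all genes were called higher and 18.4% lower, so the share of members called was below that of all genes. The 7 were NOP15 (0.71 ± 0.17), SSF1, NOP14, UTP11, NOP16, DBP3 and BRX1, and UTP22 was the one called lower, with 107, 97.1 and 97.7 CPM in C719A libraries, against 144, 128 and 111 CPM in WT libraries (log2 fold change -0.34 ± 0.10 (SE), adjusted p = 0.0106). NOG1, which was called higher before heat, was at 101, 65.2 and 87.0 CPM in C719A libraries, against 127, 113 and 81.0 CPM in WT libraries (log2 fold change -0.34 ± 0.20 (SE), adjusted p = 0.188), and the groups overlapped. RRP5 (-0.03 ± 0.21), NOP1 (0.032 ± 0.19) and ERB1 (0.15 ± 0.19) were not called. Leaving out C719A library C gave 3 calls and leaving out WT library C 4, with a median of -0.0064 in the second case. UTP22 was not called without WT library A.

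In G906D cells after 1 h, 25 factors were higher than in WT and none was lower (median 0.32), where 16.3% of all genes were called higher and 15% lower. All 6 members on chromosome VII were among the 25, led by DBP3 with 262, 202 and 215 CPM, against 85.9, 95.5 and 72.2 CPM (log2 fold change 1.42 ± 0.16 (SE), adjusted p = 6.52e-08), and ENP2 (1.36 ± 0.17). Of the other 54 members 19 were called, among them REI1 with 72.1, 46.0 and 49.4 CPM, against 33.4, 39.4 and 26.2 CPM (log2 fold change 0.76 ± 0.16 (SE), adjusted p = 0.000793), BFR2 and SSF1. No box C/D gene was called (median 0.11). Without WT library C at 1 h the count was 11, without G906D library A at 1 h it was 12, and with library size alone 16.

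**Figure D4:**
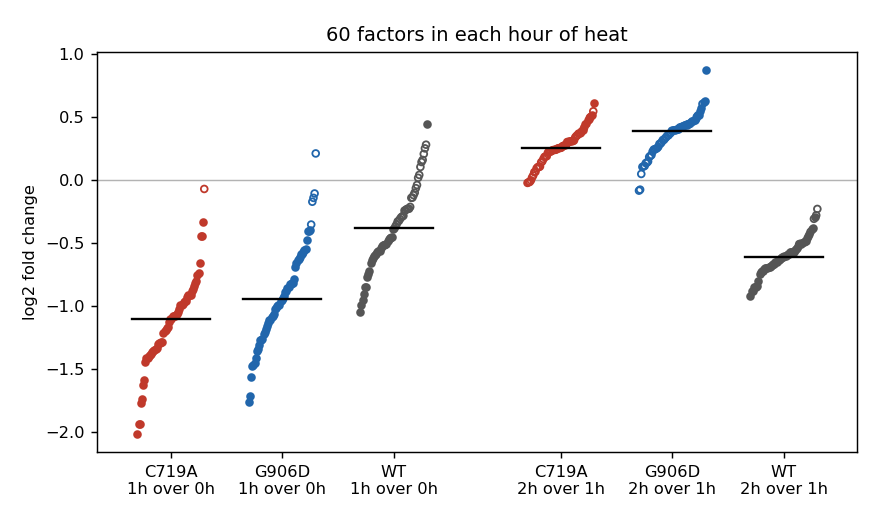
Log2 fold change of each of the 60 factors for 1 h over 0 h (left 3 columns) and 2 h over 1 h (right 3 columns) in C719A, G906D and WT cells, sorted within a column. Filled points were called at an adjusted p under 0.05 and open points were not, and bars are medians; the mutants have the lower medians in the first hour (-1.10 and -0.94, against -0.38 in WT) and the higher ones in the second.

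The second hour of heat separated the strains again. In C719A cells 6 of the 60 factors were higher at 2 h than at 1 h and none was lower (median 0.26), where 7.74% of all genes were called higher and 7.5% lower. In G906D cells 10 were higher and none was lower (median 0.39, background 7.83% higher and 8.3% lower). In WT cells 53 were lower and none was higher (median -0.61), where 13.6% of all genes were called lower and 10.4% higher, and all 60 estimates were below 0. The 6 called higher in C719A cells were a share close to that of all genes. They were UTP8 (0.62 ± 0.16), UTP9 and UTP15 of the UTP-A complex, UTP13 of the UTP-B complex, DBP6 and SOF1. Those with the largest rises in G906D cells were DBP2, with 351, 388 and 434 CPM at 2 h, against 273, 185 and 183 CPM at 1 h (log2 fold change 0.87 ± 0.23 (SE), adjusted p = 0.0136), UTP4 (0.63 ± 0.20) and RRB1 (0.62 ± 0.19), a chaperone of the ribosomal protein Rpl3. The estimates were above 0 for 56 of the 60 members in C719A and 58 in G906D cells. All 3 libraries at 2 h lay above all 3 at 1 h for 39 members in C719A cells, against 22.3% of all genes, and for 30 in G906D cells, against 16.4%. With only the 2 groups compared in the fit, 27 and 16 members were called higher. Both counts of called members moved with single libraries. In C719A cells 1 was called without library B at 1 h and 3 whichever library at 2 h was left out, and in G906D cells 35 were called without library A at 1 h, 0 without library B or C at 1 h or library C at 2 h (14, 15 and 16 members at an unadjusted p under 0.05, all higher, by edgeR), and 1 without library B at 2 h. Leaving out WT library A at 2 h, which is in neither of these groups, gave 19 in G906D cells. UTP8 was not called in C719A cells without library B at 1 h. In G906D cells DBP2 was not called without library B or C at 1 h or library C at 2 h, and RRB1 and UTP4 were not called when library B or C at 1 h or library B or C at 2 h was left out.

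In WT the members with the largest falls were NOG1, to 39.7, 68.0 and 61.7 CPM at 2 h, against 127, 113 and 81.0 CPM at 1 h (log2 fold change -0.92 ± 0.20 (SE), adjusted p = 0.00267), NOP58 (-0.88 ± 0.19), BFR2 (-0.88 ± 0.19), a protein of the small-subunit processome, and NSR1 (-0.85 ± 0.26). RRP5 had 67.6, 116 and 101 CPM at 2 h, against 184, 178 and 116 CPM at 1 h (log2 fold change -0.75 ± 0.21 (SE), adjusted p = 0.0121), and ERB1 40.5, 69.9 and 64.4 CPM, against 102, 98.2 and 74.4 CPM (log2 fold change -0.65 ± 0.19 (SE), adjusted p = 0.0177). In both genes library A at 2 h was the lowest. The 7 members that were not called included UTP7 (-0.23 ± 0.14), NOC4, NOP16 and NMD3 (-0.41 ± 0.16 (SE, adjusted p = 0.0557)), which was called with any one of 5 libraries left out. The count in WT was not firm. Without WT library A at 2 h the median was -0.44 and 11 members were called, without library A or B at 1 h 21 and 27 were called, and with only the WT groups of these times in the fit 14 were called, all lower. Without library A at 2 h NOG1 was at -0.72, NOP58 at -0.65 and BFR2 at -0.71, all still called, and NSR1 at -0.65, RRP5 at -0.55 and ERB1 at -0.45 were not called. These last 3 were not called without WT library A or B at 1 h either.

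After 2 h both mutants stood above WT in nearly every factor. In C719A cells 59 of 60 were higher and none lower (median 1.02, or 2.03-fold), where 27.5% of all genes were called higher and 28.9% lower. In G906D cells all 60 were higher (median 1.31, or 2.47-fold), where 31.9% of all genes were called higher and 33.2% lower. The estimates ran from 0.26 to 1.45 in C719A and from 0.53 to 2.72 in G906D cells, and 31 and 50 of the called members differed by at least 2-fold. The 3 libraries of each mutant lay above the 3 WT libraries for all 60 genes, a pattern found in 32.9% of all genes for C719A and 35.6% for G906D cells. Leaving out WT library A, the lowest library, gave a median of 0.82 with 56 called in C719A cells, and of 1.14 with 59 called in G906D cells.

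NOG2, a GTPase of late nuclear maturation, had the largest difference in C719A cells at 2 h, with 153, 132 and 137 CPM, against 37.7, 63.0 and 53.4 CPM in WT libraries (log2 fold change 1.45 ± 0.21 (SE), adjusted p = 3.76e-06). SSF1 (1.44 ± 0.17) and BFR2 (1.42 ± 0.19) were next. UTP7 (0.26 ± 0.14 (SE, adjusted p = 0.103)) was the member not called, and UTP22 had the smallest called difference, with 125, 114 and 114 CPM, against 86.0, 110.4 and 97.0 CPM (log2 fold change 0.27 ± 0.10 (SE), adjusted p = 0.0292). The box C/D scaffold genes, not called before heat, were called here: NOP58 was at 116, 99.9 and 106 CPM in C719A libraries, against 33.3, 63.0 and 53.7 CPM in WT libraries (log2 fold change 1.10 ± 0.19 (SE), adjusted p = 3.1e-05), and NOP56 at 117, 107 and 107 CPM, against 36.3, 62.5 and 61.8 CPM (log2 fold change 1.04 ± 0.17 (SE), adjusted p = 1.48e-05). NOP1 was at 328, 294 and 315 CPM, against 101, 189 and 161 CPM (1.05 ± 0.19). Of the UTP-A genes UTP9 differed most (1.38 ± 0.14) and UTP10 least, with 200.4, 189 and 197 CPM, against 75.3, 119 and 114 CPM (0.92 ± 0.19). Helicases had the lowest median of the role groups (0.76), with HAS1 at the bottom (0.42 ± 0.16). Without WT library A at 2 h neither HAS1 (0.25) nor UTP22 (0.18) was called. HAS1 was not called without C719A library A or B at 2 h either, and UTP22 without WT library C or C719A library A at 2 h.

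In G906D cells at 2 h the chromosome VII members again led: NSR1 had 703, 772 and 840.1 CPM, against 81.1, 138 and 132 CPM (log2 fold change 2.72 ± 0.28 (SE), adjusted p = 8.96e-09), and DBP3 (2.56 ± 0.16), NOP7 (2.49 ± 0.20), ENP2 (2.33 ± 0.18) and UTP8 (2.25 ± 0.16) followed. BFR2, on chromosome IV, had 65.6, 76.7 and 81.1 CPM, against 13.2, 20.7 and 19.1 CPM (log2 fold change 2.07 ± 0.19 (SE), adjusted p = 2.57e-09). NOG2 (1.72 ± 0.22), REI1 (1.65 ± 0.17), NOG1 (1.52 ± 0.21), NOP58 (1.39 ± 0.19), ERB1 (1.37 ± 0.19) and RRP5 (1.12 ± 0.21) were called higher as well. UTP7 (0.53 ± 0.14) and UTP30 (0.58 ± 0.15), a nonessential factor related to ribosomal proteins, were the lowest. Every role group had a median above 1 on the log2 scale, from 1.02 in the helicases to 1.40 in the UTP-A genes.

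**Figure D5:**
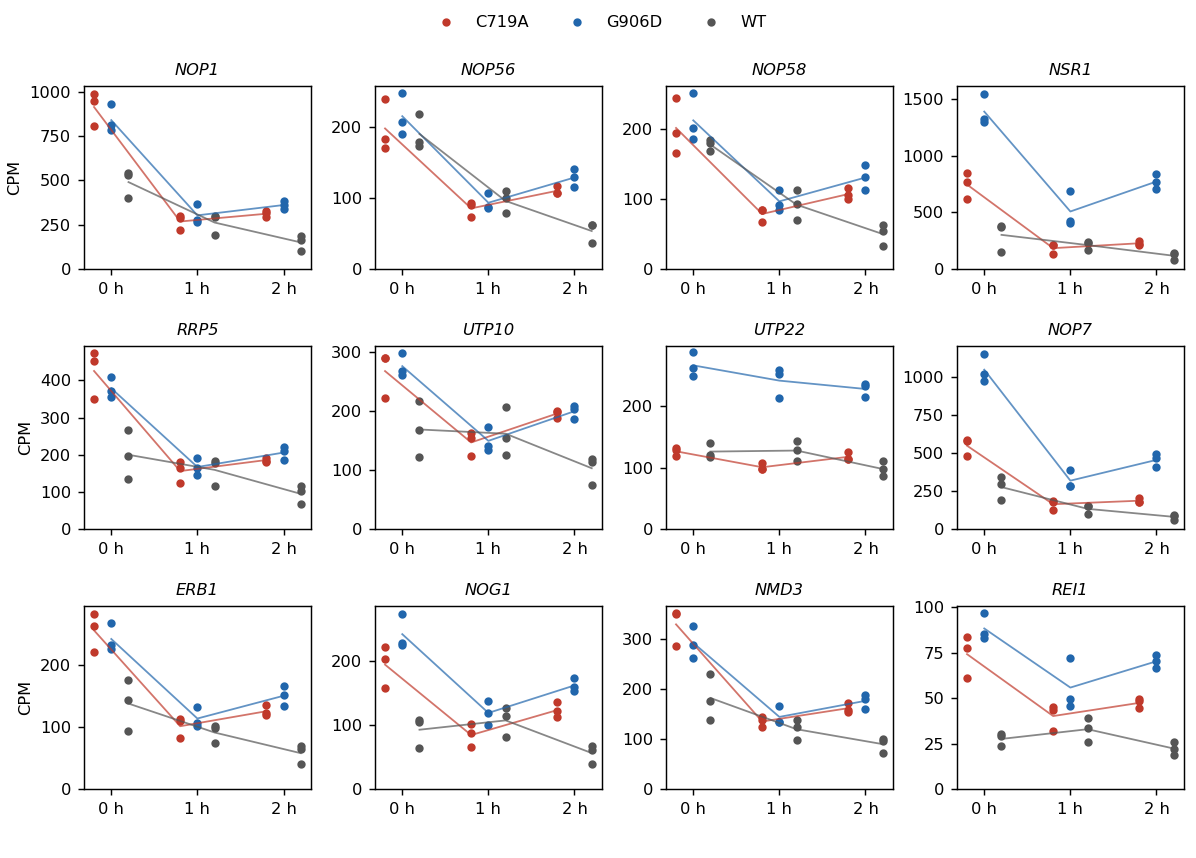
CPM after TMM scaling of 12 members in every library of C719A, G906D and WT cells at 0, 1 and 2 h; points are libraries and lines join group means. In NOP58 and NOP56 the strains start together and part at 2 h, in NOG1 and RRP5 they part, meet and part again, and in UTP22 the C719A and WT libraries stay between 86.0 and 144 CPM throughout.

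Whether the strains responded differently to heat was tested directly, as the difference between each mutant's log2 response and that of WT. In the first hour the C719A response was lower than the WT response for 46 of the 60 factors and higher for none (median difference -0.78), where 16.2% of all genes were called lower and 15.3% higher. In the second hour it was higher for 53 and lower for none (median difference 0.87), where 16.8% of all genes were called higher and 15.5% lower. The G906D response was lower than that of WT for 21 in the first hour (median difference -0.54, background 13.8% lower and 15.6% higher) and higher for 56 in the second (median difference 0.97, background 16% higher and 13.4% lower). None was called the other way. The 2 differences share the libraries of 1 h, which enter them with opposite signs, and both mutants are set against the same WT libraries.

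The first-hour difference was largest in C719A cells for NSR1 (log2 fold change -1.50 ± 0.37 (SE), adjusted p = 0.00365) and NOG1 (log2 fold change -1.41 ± 0.29 (SE), adjusted p = 0.000834), and in G906D cells for NOG1 (log2 fold change -1.23 ± 0.28 (SE), adjusted p = 0.00362). It was not called for NOP56 (-0.22 ± 0.24 in C719A and -0.22 ± 0.24 in G906D cells) or NOP58 (-0.41 ± 0.26 and -0.18 ± 0.26). The second-hour difference was largest in C719A cells for NOG1 (log2 fold change 1.47 ± 0.29 (SE), adjusted p = 0.000819), NOP58 (1.32 ± 0.27) and UTP8 (1.31 ± 0.22), and in G906D cells for NSR1 (log2 fold change 1.46 ± 0.37 (SE), adjusted p = 0.00502), BFR2 (1.43 ± 0.27) and DBP2 (1.38 ± 0.33). It was smallest, and not called, for NOP16 in C719A cells (0.33 ± 0.19) and for UTP22 in G906D cells (0.30 ± 0.14). The first-hour count in G906D cells was the least firm, with 6 called under library size alone and 8 with only the groups compared. It ran from 6 without WT library C at 0 h, G906D library B at 0 h or G906D library B at 1 h, over 7 and 8 without WT library B or A at 1 h, to 38, 39 and 41 without WT library C at 1 h, WT library A at 0 h or G906D library A at 1 h. In C719A cells the first-hour count was 27 without WT library C at 0 h, 28 without C719A library B at 1 h and 29 without WT library A at 1 h. The second-hour count without WT library A at 2 h was 36 in C719A and 48 in G906D cells.

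Set against each other, the mutants differed in 2 to 11 of the 54 factors outside chromosome VII in the fit over all 9 groups. The shares of all genes tested are given below for each time. They include the 528 tested genes of chromosome VII, whose medians were -0.91, -0.96 and -0.94 at 0, 1 and 2 h. The share called among all genes outside this chromosome was not computed, so the counts of the 54 have no like background. The number at 2 h depended on which groups were fitted. Before heat, 1 factor was higher and 7 were lower in C719A than in G906D cells, where 21.6% of all genes were called higher and 20.2% lower. The 7 were the 6 members on chromosome VII, from UTP8 (-1.34 ± 0.16) to DBP3 (-0.66 ± 0.15), and RRP9, with 69.6, 49.3 and 57.5 CPM in C719A libraries, against 79.3, 83.0 and 76.1 CPM in G906D libraries (log2 fold change -0.44 ± 0.14 (SE), adjusted p = 0.0165), whose call was lost without C719A library B or G906D library B. The one higher was NOP8, with 162, 158 and 173 CPM, against 106, 125 and 111 CPM (log2 fold change 0.53 ± 0.10 (SE), adjusted p = 0.000223). With library size alone 17 were higher and 6 lower, so at 0 h the direction outside chromosome VII depended on the scaling. With only the 2 groups compared in the fit, 9 were higher and 10 lower. After 1 h 16 were lower in C719A cells and none higher (median -0.19, background 19.4% lower and 17.9% higher), 10 of them on other chromosomes. After 2 h 17 were lower and none higher (median -0.28, background 20.9% lower and 18.6% higher), 11 on other chromosomes, among them NIP7, with 45.7, 39.5 and 44.1 CPM in C719A libraries, against 58.3, 68.7 and 76.5 CPM in G906D libraries (log2 fold change -0.65 ± 0.20 (SE), adjusted p = 0.0122), BFR2 (-0.65 ± 0.18) and REI1 (-0.57 ± 0.16). At 2 h only 2 of the 60 estimates lay above 0, and all 3 C719A libraries lay below all 3 G906D libraries for 43 members, against 29.9% of all genes. With only these 2 groups in the fit, 50 members were called lower at 2 h. At 1 h 5 of the 60 estimates were above 0, the libraries did not overlap for 19 members that were lower in C719A cells, against 23.6% of all genes, and 14 were called lower with only the 2 groups in the fit. The count at 1 h was 8 without C719A library B, and that at 2 h was 11 without C719A library B and 10 without G906D library C. NIP7 was not called without either of these libraries.

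A further 51 small-subunit and 55 large-subunit assembly factors, listed by name, were all tested. In C719A cells before heat 48 of the 51 and 49 of the 55 were higher than in WT and none was lower (medians 0.89 and 0.89), where 27% of all genes were called higher. In G906D cells before heat 51 of the 51 and 50 of the 55 were higher (background 30.9%), and 1 of the 55, JJJ1, was lower (-0.62 ± 0.21). At 1 h 11 of the 51 and 8 of the 55 were higher in C719A cells (background 17.3%) and 26 and 14 in G906D cells (background 16.3%), with 1 of the 55 lower in each. After 2 h the counts were 47 and 51 in C719A cells, and 48 and 52 in G906D cells, with none lower (background 27.5% and 31.9% higher). In WT 34 of the 51 and 42 of the 55 were lower at 2 h than at 1 h (background 13.6%), and RSA1 was higher (0.29 ± 0.10). The counts of these lists are over all libraries and were not recomputed without WT library A at 2 h. Without that library the count of members called lower in this WT comparison dropped sharply, as given above, while their counts over WT at 2 h moved little. The WT counts of these lists are therefore not a firm result either. Before heat the largest differences in C719A cells were those of FAF1 (1.63 ± 0.16) and PNO1 (1.50 ± 0.16) for the small subunit, and of SPB1 (1.69 ± 0.19), a methyltransferase, and RPF2 (1.56 ± 0.21) for the large subunit. MDN1, the large AAA-type ATPase that pulls factors off pre-60S particles, was the one lower than in WT at 1 h in each mutant (-1.10 ± 0.25 in C719A and -1.06 ± 0.25 in G906D cells), and RIO1, a kinase of late small-subunit maturation, was not called in C719A cells at 2 h (-0.041 ± 0.10).

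Of the 14 regulators listed, 4 were called higher and 4 lower than in WT in C719A cells at 0 h (background 27% and 26.7%). The counts were 1 and 6 at 1 h (17.3% and 18.4%) and 3 and 2 at 2 h (27.5% and 28.9%). In G906D cells they were 3 and 9 at 0 h (30.9% and 33.2%) and 0 and 3 at 1 h (16.3% and 15%). At 2 h they were 2 and 8 (31.9% and 33.2%). Not every regulator that was called is named here. The lowest of the 14 in C719A cells against WT were RIM15 at 0 h (-0.89), IFH1 at 1 h (-0.53) and STB3 at 2 h (-0.36). Among the 14, the repressor gene TOD6 had a pattern like that of the members. It was higher than in WT in C719A cells at 0 h (1.24 ± 0.18, adjusted p = 3.4e-06) and 2 h (1.37 ± 0.17, adjusted p = 3.68e-07) and was not called at 1 h (0.36 ± 0.17), and in G906D cells it was higher at 0 h (0.93 ± 0.18) and 2 h (1.16 ± 0.17) and was not called at 1 h (adjusted p = 1). STB3, the RRPE-binding repressor, was higher after 1 h of heat in C719A (1.26 ± 0.12), G906D (1.97 ± 0.12) and WT cells (1.28 ± 0.12). Before heat G906D cells had lower levels than WT of STB3 (-0.90 ± 0.12), of the second PAC-binding repressor DOT6 (-0.92 ± 0.11), of the activator SFP1 (-0.73 ± 0.12) and of TOR1 (-0.86 ± 0.10). C719A cells had more SCH9, which encodes a kinase under TORC1, at 0 h (0.83 ± 0.11), 1 h (0.55 ± 0.11) and 2 h (0.44 ± 0.11), and less TOR1 at all 3 times, from -0.84 ± 0.10 at 0 h to -0.33 ± 0.10 at 2 h. These are mRNA levels, and the activity of these regulators was not measured.

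Set beside the promoters shown first, the median log2 fold change of the 35 members with both motifs was -0.51 in WT for 1 h over 0 h, with 23 called lower, and the 20 with PAC alone had -0.29, with 6 called lower. For 2 h over 1 h in WT the medians were -0.66 and -0.57. For C719A over WT at 2 h they were 1.05 and 0.88, and the pair with neither motif, UTP22 and UTP30, were at 0.27 and 0.52, near the bottom of the 60. The classes did not keep one order across comparisons. The 3 members with RRPE alone had a median of 1.13 for C719A over WT at 2 h, above those with both motifs. For G906D over WT the medians of the members with both motifs and with neither were 0.88 and 0.87 at 0 h, 0.32 and 0.57 at 1 h, and 1.37 and 0.90 at 2 h; UTP22 lies on chromosome VII. NOP58 and NOP56 hold both motifs, as NOG1 and RRP5 do, although their difference from WT before heat was not called and those of NOG1 and RRP5 were. These values are descriptions with no test.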

How the data were processed

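Poly(A) RNA of 27 samples was sequenced on the Illumina platform, and TopHat2 and Bowtie2 are named in the submitters' processing notes. The genome build, the annotation and the counting tool are not given in the sources used here. The authors deposited a read count and an FPKM value for each of 7122 gene IDs in each library. Counts were tested with edgeR 4.0.16 (R 4.3.3; TMM, filterByExpr, quasi-likelihood F-test, 1 model with 9 groups), with Benjamini-Hochberg adjustment over 6386 genes in each of 19 comparisons and a threshold of 0.05. FPKM served only for levels per gene length and for limma 3.58.1 as an alternative, and DESeq2 1.42.0 was another. The scripts were tested on simulated data. Replicate libraries differed by more than sampling noise (chi-square per degree of freedom 7.055 or more), so none was counted as a duplicate. Same-letter libraries of WT at 0 h and 1 h deviated together (r = 0.156, 0.154 and 0.209, each over the limit of 0.1 taken to mean pairing) and those of no other 2 times of a strain did for all 3 letters; the letter as a block left the count of members called there at 30. P-values measure the spread between these libraries. Each SE of a log2 fold change was obtained as its absolute value divided by the square root of the F statistic. It therefore rests on the spread estimated in the model with 9 groups, not on the compared libraries alone.

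The 60 members, the role groups and the other gene lists were chosen with earlier results of these data known. Named members are 12 fixed core members, the members with the largest changes in a comparison, and those that stood against the rest; members named beyond these were chosen after their values were seen. Promoters were read from the RefSeq R64 genome, in place of a promoter table planned at the outset, and its coordinates were joined to the files by systematic name only. Alternatives were the scaling, the low-count filter, the tool, the replicate block, the groups in the fit, chromosome VII and leaving out each library.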

Additional observations from a re-analysis of the deposited data

Results flagged for a closer look

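The heat response of the factors differed between strains by the test of the difference itself (edgeR's quasi-likelihood test, Benjamini-Hochberg adjustment over all genes). In the first hour the log2 response of C719A cells was lower than that of WT cells for 46 of the 60 factors, where 16.2% of all genes were called lower, and that of G906D cells for 21, where 13.8% were. The 21 became 6 to 41 when 1 library was left out and 6 with library size alone, and the 46 became 27 to 54 when 1 library was left out. In the second hour the C719A response was higher for 53 (background 16.8% higher) and the G906D response for 56 (background 16%), and without WT library A at 2 h for 36 and 48. NOG1, the nucleolar GTPase gene, changed sides: its first-hour response minus that of WT was -1.41 ± 0.29, adjusted p = 0.000834 in C719A and -1.23 ± 0.28, adjusted p = 0.00362 in G906D cells, and its second-hour response minus that of WT was 1.47 ± 0.29, adjusted p = 0.000819 in C719A and 1.37 ± 0.29, adjusted p = 0.00152 in G906D cells (log2 ± SE, n = 3 libraries a group, edgeR). NSR1, the nucleolin homologue gene, differed from WT by -1.50 ± 0.37, adjusted p = 0.00365 in the first and 1.16 ± 0.37, adjusted p = 0.019 in the second hour in C719A cells, and by 1.46 ± 0.37, adjusted p = 0.00502 in the second hour in G906D cells. All 4 sets of differences share the WT libraries. The libraries of 1 h enter the first-hour and the second-hour differences with opposite signs, so a change of sides is not a pair of independent results. No explanation for these differences was tested.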

How the results depend on the processing

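The number of the 60 factors called was within 1.5 times the reported count, in the same direction, in all 19 comparisons under RLE size factors, DESeq2, TMM without the 60 factors, a minimum of 10 counts in every library and no filter beyond 1 count. Scaling by library size alone, and limma on log2(FPKM + 1) or log2(FPKM + 0.1), gave 16, 16 and 16 members for G906D over WT at 1 h, 23, 20 and 19 for C719A over G906D at 0 h, most of them higher where most were lower under TMM, 18, 16 and 16 for 1 h over 0 h in WT, where 9 were higher and 7 lower with limma, and 6, 4 and 4 for the first-hour response of G906D minus WT. Limma with the 2 pseudocounts gave 10 and 9 for C719A over G906D at 2 h and 5 and 4 for 2 h over 1 h in G906D, the smaller pseudocount gave 10 for C719A over G906D at 1 h, and library size and the pseudocount of 1 gave 10 and 10 for 2 h over 1 h in C719A. With only the groups compared in the fit, the counts were 19 at 0 h and 50 at 2 h for C719A over G906D, 27, 16 and 14 for 2 h over 1 h in C719A, G906D and WT, and 30 and 8 for the first-hour responses of C719A and G906D minus WT. Without chromosome VII, 2 members were called for C719A over G906D at 0 h. The cause of these changes was not tested beyond the shift in scaling given next. Library size alone moved the median log2 fold change of all genes to -0.37, -0.15 and -0.15 for G906D over WT at 0, 1 and 2 h, to 0.30 and 0.15 for C719A over G906D at 0 and 2 h, to 0.28, 0.53 and 0.29 for 1 h over 0 h in C719A, G906D and WT, and to 0.23 for the first-hour response of G906D minus WT.

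Leaving out 1 library at a time, the counts ran from 3 to 11 for C719A over WT at 1 h, 11 to 27 for G906D over WT at 1 h, 8 to 19 and 10 to 23 for C719A over G906D at 1 h and 2 h, 1 to 9, 0 to 35 and 11 to 57 for 2 h over 1 h in C719A, G906D and WT, 18 to 39 for 1 h over 0 h in WT, and 27 to 54 and 6 to 41 for the first-hour responses of C719A and G906D minus WT. The count for G906D at 2 h over 1 h was 0 by edgeR without G906D library B or C at 1 h or library C at 2 h, where 14, 15 and 16 members had an unadjusted p under 0.05. For C719A over WT the counts ran from 51 to 56 at 0 h and 56 to 60 at 2 h, for G906D over WT from 54 to 57 and 59 to 60, and for the second-hour responses of C719A and G906D minus WT from 36 to 55 and 48 to 59.

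Some members whose differences were not called changed sign near 0. Under library size, limma with a pseudocount of 1 and limma with 0.1, the log2 values were -0.17, -0.16 and -0.16 for NOP56, -0.0844, -0.0909 and -0.0917 for NOP58 and -0.16, -0.15 and -0.16 for DBP6 in G906D over WT at 0 h, -0.0473, -0.0403 and -0.0413 for UTP22 and -0.000929, -0.000115 and -0.000107 for NOP56 in C719A over WT at 0 h, -0.0341, -0.0255 and -0.0255 for NOP1 in C719A over WT at 1 h, 0.22, 0.23 and 0.23 for UTP10 in WT for 1 h over 0 h, and 0.0243, 0.0468 and 0.0472 for NOP58 in the first-hour response of G906D minus WT. UTP22 in C719A over WT at 0 h was -0.00360 with only the groups compared. Leaving out 1 library gave -0.10 to 0.17 for NOP56 and -0.0491 to 0.0897 for UTP22 in C719A over WT at 0 h, -0.15 to 0.16 for NOP1 and -0.22 to 0.11 for RRP5 at 1 h, and -0.28 to 0.16 for UTP10 and -0.0725 to 0.11 for UTP22 in WT for 1 h over 0 h.

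Taken over all pairs, with the WT pairs of 0 h and 1 h included, the letters A, B and C gave only a hint of pairing. Deviations of libraries with the same letter had a median r of 0.037 over the 27 pairs within a strain. The median was -0.0033 over the 27 pairs across strains at the same time. In 15 and 7 of these pairs the best match was the own letter. With the letter as a replicate block, 56, 56 and 23 members were called for C719A over WT at 0 h and G906D over WT at 0 h and 1 h, and 3 for 2 h over 1 h in C719A, the one count the block moved by more than 1.5 times. With the replicate block within each strain, 30, 5 and 25 members were called for 1 h over 0 h in WT, 2 h over 1 h in C719A and the first-hour response of G906D minus WT. With 3 libraries a group and the lowest count of a member at 262, the spread between libraries rather than counting limited these comparisons.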
